A study of Homo sapiens with 24 samples.

Results

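The cytosolic ribosomal protein genes were taken by symbol: RPL or RPS followed by digits and, where present, a final A or X, together with RPLP0, RPLP1, RPLP2 and RPSA. The rule found 77 of 25168 genes, 46 for proteins of the large (60S) subunit and 31 for proteins of the small (40S) subunit, and used no measured value. RNA was sequenced from BXPC3 and PANC1, a pair of established human pancreatic cancer cell lines, after 24 h with vehicle, with SR4 at 5 uM, with lonidamine at 300 uM or with both compounds. Each line had 4 groups of 3 libraries, 24 libraries in all. The doses within the combination are not given separately in the labels. SR4 is a compound known here by its code name, and lonidamine is known to block the transport of pyruvate and lactate. Every library is labelled with a control genotype, and cells were grown in low-glucose medium with serum. The labels do not say whether the libraries of a group came from separate cultures, so a p-value reflects the spread between libraries, which may be technical. Levels are given as CPM, a gene's count per 1000000 gene counts of its library.

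Ribosomal proteins are the protein part of the ribosome: nearly all are built as single copies into every subunit around the ribosomal RNA, while the acidic stalk proteins RPLP1 and RPLP2 sit on RPLP0 in several copies and recruit translation factors. Their mRNAs are among the most abundant of a growing cell. Most start with a cytosine followed by a run of pyrimidines, the 5' terminal oligopyrimidine (TOP) tract, which lets LARP1 and mTORC1 set their translation and stability together. Proteins made in excess are known to be degraded, and free RPL5 and RPL11 are known to bind MDM2.

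The starts of the mRNAs carry this feature in the reference. Of the 77 genes, 62 were matched by symbol in the RefSeq promoter table (GRCh38.p14), and 46 of these 62 (74.2%) had a listed start at a C followed by at least 4 more pyrimidines, against 5.14% of all 27305 genes in that table. A start at C was listed for 49 members (79.0%) and for 18% of all genes. The following windows of 30 bases run from 10 bases before the RefSeq start to the 20 bases from it, 5' to 3', with the pyrimidine tract at the start in capitals. They are shown because these members lead the results: RPS27, RPL13A and RPL10 rose most in BXPC3, RPL7A and RPS25 had the largest differences in response between the lines with the combination and with lonidamine, RPL12 rose in both, RPL35, RPSA and RPL22 fell with the combination in both, and RPS16 differed most between the untreated lines.
RPS27: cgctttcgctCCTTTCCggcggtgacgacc
RPL13A: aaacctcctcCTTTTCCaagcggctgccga
RPL10: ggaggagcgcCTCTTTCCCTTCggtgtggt
RPL7A: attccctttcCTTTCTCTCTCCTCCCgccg
RPS25: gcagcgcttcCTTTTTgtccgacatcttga
RPL12: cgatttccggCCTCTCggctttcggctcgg
RPL35: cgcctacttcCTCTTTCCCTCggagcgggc
RPSA: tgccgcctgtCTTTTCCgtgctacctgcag
RPL22: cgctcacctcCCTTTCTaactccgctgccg
RPS16: ccctagctttCCTTTTCCggttgcggcgcc
On GRCh38.p14 these windows are chr1:153990752-153990781 (+) for RPS27, chr19:49487598-49487627 (+) for RPL13A, chrX:154398367-154398396 (+) for RPL10, where RefSeq lists other starts as well, and chr9:133348208-133348237 (+) for RPL7A. They are chr11:119018324-119018353 (-) for RPS25, chr9:127451387-127451416 (-) for RPL12, chr9:124861938-124861967 (-) for RPL35 and chr3:39406710-39406739 (+) for RPSA. They are chr1:6199576-6199605 (-) for RPL22 and chr19:39435930-39435959 (-) for RPS16.

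Members without such a tract at their listed start moved too. RPS26 has a G and RPL9 an A at the listed start, and RPS15 has a single C before an A. RPS26 and RPS15 were among the members that fell most in PANC1, and RPL9 among those that rose most with lonidamine there.
RPS26: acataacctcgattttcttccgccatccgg
RPS15: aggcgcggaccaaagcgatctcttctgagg
RPL9: taatgacgacagacgttctttctttgctgc
These are chr12:56041908-56041937 (+), chr19:1438386-1438415 (+) and chr4:39458903-39458932 (-), in that order.
Medians of log2 change were compared between the 46 members with a tract at a listed start and the 16 matched members without one there. Some of the 16 have a tract close by, such as RPL4 (12 pyrimidines from base 6) and RPS28 (9 from base 2). RPS26, RPS15 and RPL9, printed above, also have a run of pyrimidines downstream of the listed start, beginning at a T. The split thus depends on the listed start position. In BXPC3 the medians were 0.35 and 0.27 with SR4, and 0.30 and 0.17 with the combination. In PANC1 the same medians were 0.30 and 0.23 with SR4, and -0.11 and -0.18 with the combination. Both kinds of start had medians of the same sign in these 4 comparisons. With lonidamine the medians were 0.17 and 0.14 in BXPC3, and -0.03 and 0.04 in PANC1.

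Total gene counts were 8873041 to 11822495 per library. SMAD4, which BXPC3 is known to lack, had 0 counts in every BXPC3 library and 48.6 to 52.9 CPM in PANC1 vehicle libraries. The summed level of 5 epithelial markers was 5042 to 5423 CPM in BXPC3 vehicle libraries and 2605 to 2692 CPM in those of PANC1. With the combination it was 2586 to 2618 and 510 to 543 CPM, and its part in the results was not tested. VIM, a mesenchymal marker, stood at 63.7 to 67.7 and 4185 to 4202 CPM. Summed levels of 4 immune, 3 endothelial and 3 acinar markers were at most 4.77, 10.9 and 1.66 CPM in any library, and that of 4 fibroblast markers at most 85.7 CPM, reached in PANC1 vehicle libraries, where all but COL1A1 were at 0. In bulk RNA, fewer cells of a type and less RNA per cell cannot be told apart.

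As a whole, the 77 genes took a larger share of all gene counts after every treatment in BXPC3. In PANC1 they took a larger share after SR4, a share just above vehicle after lonidamine and a smaller share with the combination. In BXPC3 the share was 4.18%, 4.12% and 3.99% in the vehicle libraries, 5.38%, 5.37% and 5.36% with SR4, 4.61%, 4.55% and 4.47% with lonidamine and 5.08%, 4.94% and 5.03% with the combination. No treated library of BXPC3 overlapped the vehicle libraries. In PANC1 the share was 3.86%, 3.82% and 3.82% with vehicle, 4.57%, 4.80% and 4.45% with SR4, 3.89%, 3.94% and 3.87% with lonidamine and 3.64%, 3.75% and 3.64% with the combination. No treated library of PANC1 overlapped the vehicle libraries either. With 3 libraries against 3, an exact permutation test cannot go below p = 0.1, so the share was not tested by itself. A share compares these genes with the rest of the RNA, and neither the amount of RNA per cell nor the number of cells was measured here.

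**Figure D1:**
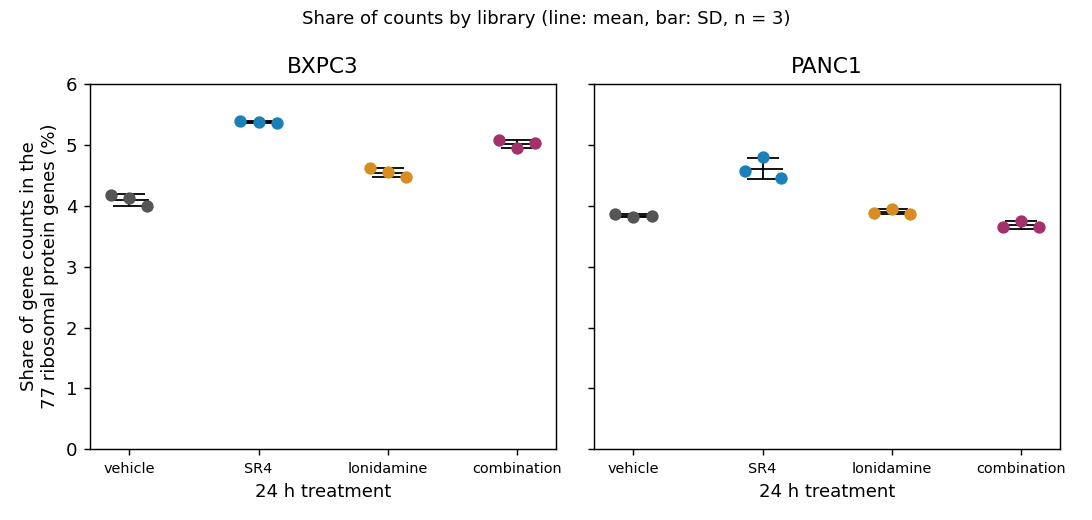
Share of all gene counts in the 77 ribosomal protein genes (%), by treatment in each line; points are libraries, the line is the mean and the bar the SD (n = 3). All treated libraries of BXPC3 lie above 4.18%, while in PANC1 the combination libraries lie between 3.64% and 3.75%, below vehicle.

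In summed counts, the large subunit gained a little more than the small one in BXPC3. The median gene did not show this with lonidamine or the combination. Median log2 changes of the 60S and 40S genes were 0.16 and 0.18 with lonidamine, and 0.28 and 0.30 with the combination. The ratio of 60S to 40S counts was 1.76 ± 0.0234 with vehicle, 1.83 ± 0.00623 with SR4, 1.82 ± 0.0111 with lonidamine and 1.88 ± 0.0200 with the combination (SD, n = 3 each). In PANC1 it was 1.13 ± 0.00844, 1.12 ± 0.00550, 1.15 ± 0.00768 and 1.08 ± 0.0177 (SD, 3 libraries a group). RPS16, whose count was high in PANC1, is among the 40S genes there.

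With SR4 in BXPC3, ribosomal protein mRNAs rose together. Of the 77 members 68 rose and 0 fell, at an adjusted p under 0.05 in the quasi-likelihood test of edgeR, with Benjamini-Hochberg adjustment over all 12920 genes tested. Of all genes, 33.4% rose and 33.9% fell (67.2% in either direction). The median log2 change was 0.33 over the members and 0.01 over all genes. In 71 members every SR4 library lay above every vehicle library, and in 0 members below. The share of all genes without overlap is not given here. This count and the later ones of its kind describe the members only. The 60S genes (41 of 46 rose) and the 40S genes (27 of 31 rose) had medians of 0.33 and 0.31.

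RPL13A, RPL10 and RPS27 rose most. RPL13A, a 60S protein known also to silence inflammatory mRNAs once released from the ribosome, had 1396, 1391 and 1313 CPM with vehicle and 2438, 2347 and 2383 CPM with SR4. The groups lay far apart, and the log2 change was 0.78 ± 0.03 (SE, edgeR adjusted p = 1.46e-18). RPL10, an X-linked protein that completes the 60S subunit late in the cytoplasm, had 948, 962 and 921 CPM with vehicle and 1480, 1537 and 1545 CPM with SR4. Its log2 change was 0.66 ± 0.03, again without overlap. RPS27, a zinc-finger protein of the 40S subunit, had 286, 157 and 276 CPM with vehicle and 439, 438 and 432 CPM with SR4. Its second vehicle library stood well below the other vehicle libraries, so its log2 change of 0.83 ± 0.11 became 0.60 without that library, still past the test.

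Members with known roles outside or at key sites of the ribosome followed the same direction with SR4 in BXPC3. RPLP0, the base of the stalk, had 1724, 1693 and 1677 CPM with vehicle and 2439, 2453 and 2462 CPM with SR4, a log2 change of 0.51 ± 0.03. The stalk proteins RPLP1 and RPLP2 rose by 0.33 ± 0.03 and 0.23 ± 0.04 log2. RPL5 and RPL11, the MDM2-binding proteins, rose by 0.37 ± 0.03 and 0.35 ± 0.03 log2. RPS6, the substrate of the S6 kinases, rose by 0.59 ± 0.04, RPL3, the protein nearest the peptidyl transferase centre, by 0.50 ± 0.03, and RPS3, at the mRNA entry, by 0.40 ± 0.03 log2. RPS19, the gene most often mutated in Diamond-Blackfan anaemia, rose by 0.35 ± 0.04 log2. RPSA, known also as the laminin receptor, rose by 0.13 ± 0.03 log2, while RPL35, RPL22, RPS2 and RPS15 did not pass the test, with changes of 0.10 ± 0.05, 0.04 ± 0.04, 0.01 ± 0.03 and 0.03 ± 0.04 log2.

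With lonidamine in BXPC3 the rise was smaller: 54 members rose and 6 fell, against 34.8% and 32.7% of all genes (67.5% in either direction), with a median of 0.16 log2 over the members and 0.03 over all genes. Every lonidamine library lay above every vehicle library in 45 members and below in 6. RPL10 (log2 change 0.48 ± 0.03), RPL13A (0.47 ± 0.03) and RPS27 (0.62 ± 0.11) led again among members with a mean of at least 2 log2 CPM, and RPS27 changed by 0.38 without the second vehicle library. RPSA, RPS2, RPL22, RPL35, RPL13 and RPS15 fell. RPSA had 932, 899 and 889 CPM with vehicle and 784, 788 and 753 CPM with lonidamine, a log2 change of -0.19 ± 0.03. RPS2, near the mRNA entry of the 40S subunit, changed by -0.15 ± 0.03 and RPL22, an RNA-binding 60S protein that the ribosome can do without, by -0.15 ± 0.04 log2. RPL35, at the exit of the peptide tunnel, changed by -0.16 ± 0.05, and lost its call (edgeR adjusted p = 0.0501) when the third lonidamine library was left out. RPL13 and RPS15 lost theirs without the first vehicle library, and RPL13 also without the second and RPS15 without the third lonidamine library.

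With both compounds in BXPC3, 61 members rose and 7 fell, against 39.7% and 39.5% of all genes (79.2% in either direction), with medians of 0.28 over the members and 0.00 over all genes. Every combination library lay above every vehicle library in 56 members and below in 7. RPL13A had 2422, 2357 and 2363 CPM, a log2 change of 0.86 ± 0.03 (1.81-fold, edgeR adjusted p = 6.38e-20). RPL10 had 1603, 1581 and 1669 CPM, a change of 0.84 ± 0.03 (1.78-fold). RPS27 had 475, 458 and 452 CPM, a change of 0.996 ± 0.11, or 0.76 without the second vehicle library. RPL12, a protein of the stalk base, and RPL3 rose by 0.74 ± 0.03 and 0.66 ± 0.03 log2. The members that fell were RPL13, RPL35, RPL22, RPSA, RPS2, RPS15 and RPS10. RPL35 went from 542, 539 and 496 CPM to 431, 419 and 414 CPM, a log2 change of -0.26 ± 0.05. RPL22 went from 446, 448 and 454 to 379, 389 and 368 CPM, a change of -0.19 ± 0.04. The fall of RPS15 by 0.10 log2 lost its call when the first or second vehicle library or the first or second combination library was left out, and was -0.05 without the first vehicle library. In BXPC3, 52 members rose with all 3 treatments, and RPL17 and RPL38 passed the test with none. The share of all genes that rose with all 3 is not given here.

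**Figure D2:**
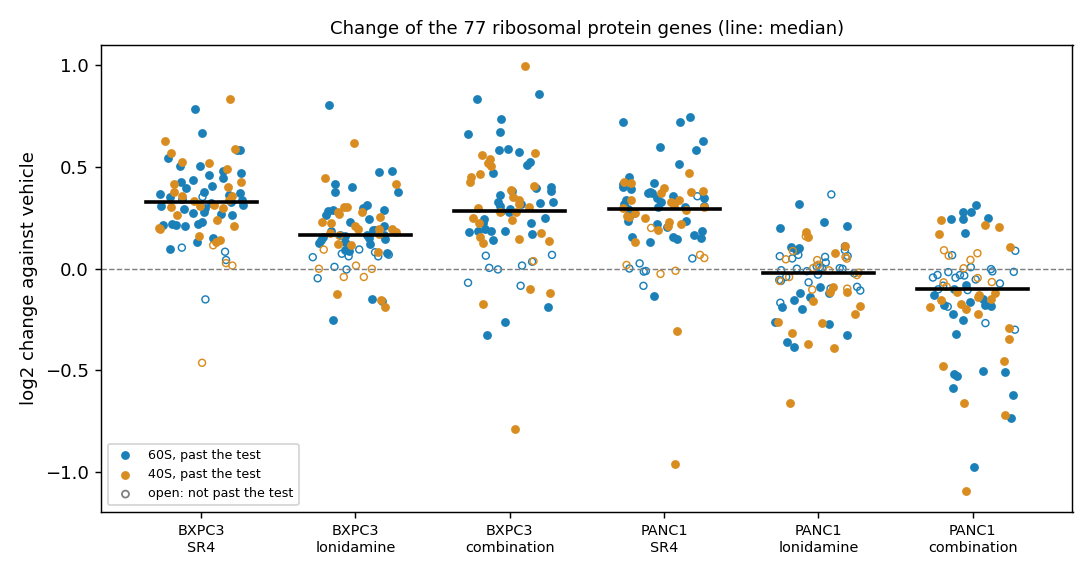
Log2 change against vehicle of each of the 77 genes (points) for the 3 treatments in both lines; filled points passed edgeR's test, blue points are 60S and orange points 40S genes, and the black line is the median. The medians are 0.33, 0.16 and 0.28 in BXPC3 and 0.29, -0.02 and -0.10 in PANC1.

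In PANC1 most members rose with SR4, but most did not rise with lonidamine or with the combination. With SR4, 61 members rose and 3 fell, against 35% and 36.7% of all 12514 genes tested (71.7% in either direction), with a median log2 change of 0.29 over the members and -0.02 over all genes. Every SR4 library lay above every vehicle library in 58 members and below in 4. RPL3 had 754, 747 and 730 CPM with vehicle and 1188, 1234 and 1164 CPM with SR4, a log2 change of 0.72 ± 0.03 (edgeR adjusted p = 6.86e-17). RPL12 had 608, 562 and 560 CPM with vehicle and 892, 866 and 847 CPM with SR4, a change of 0.63 ± 0.04. RPL13 rose by 0.75 ± 0.08 log2, from counts that were low for a ribosomal protein gene in every library: 22.9, 24.1 and 22.1 CPM with vehicle and 35.8, 38.4 and 39.0 CPM with SR4. RPL10 and RPS27 rose by 0.20 ± 0.04 and 0.38 ± 0.05 log2, and without the second SR4 library the change of RPL10 was 0.14. RPS26, RPL7A and RPS10 fell. RPS26, a protein at the mRNA exit, had 263, 261 and 268 CPM with vehicle and 204, 220 and 201 CPM with SR4, a change of -0.31 ± 0.04.

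With lonidamine in PANC1, 11 members rose and 24 fell, against 35% and 34.2% of all genes (69.2% in either direction), and 42 did not pass the test. The median was -0.02 over the members and 0.01 over all genes. Without TMM scaling, on library totals alone, 22 rose and 17 fell, so the balance of directions depended on the scaling, which moved the median of all genes to 0.06. The 11 became 7 when the second lonidamine library was left out. RPL9, RPL12 and RPL37 rose most. RPL9 had 183, 192 and 186 CPM with vehicle and 221, 251 and 251 CPM with lonidamine, a change of 0.32 ± 0.05 log2. RPL12 changed by 0.23 ± 0.04 and RPL37 by 0.21 ± 0.04 log2. Among members with a mean of at least 2 log2 CPM, RPS26, RPL7A and RPS25 fell most, by 0.39 ± 0.04, 0.38 ± 0.04 and 0.37 ± 0.04 log2. RPS10, with fewer counts, fell by 0.66 ± 0.29 (edgeR adjusted p = 0.047). RPS25, a 40S protein that many viral internal ribosome entry sites need, went from 448, 452 and 438 CPM to 346, 369 and 357 CPM, without overlap.

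With both compounds in PANC1, 12 members rose and 36 fell, against 40.1% and 40.9% of all genes (81.1% in either direction), with medians of -0.10 over the members and -0.02 over all genes. Every combination library lay above every vehicle library in 15 members and below in 42. RPL7A fell most among members with a mean of at least 2 log2 CPM. RPL7A, a 60S protein whose gene holds several small nucleolar RNAs, had 681, 668 and 682 CPM with vehicle, 600, 628 and 577 CPM with SR4, 546, 535 and 530 CPM with lonidamine and 347, 336 and 339 CPM with the combination. These 4 groups did not overlap. Its log2 change with the combination was -0.98 ± 0.04, a 1.97-fold lower level (edgeR adjusted p = 2.09e-19).

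RPL23A, a binding site for the signal recognition particle at the tunnel exit, had 717, 668 and 661 CPM with vehicle and 412, 403 and 404 CPM with the combination, a change of -0.73 ± 0.05 log2. RPS15, in the head of the 40S subunit, had 192, 194 and 186 CPM with vehicle and 111, 117 and 116 CPM with the combination, a change of -0.72 ± 0.05. RPSA changed by -0.66 ± 0.04, RPL22 by -0.59 ± 0.04 and RPL35 by -0.50 ± 0.04 log2. RPL3, RPL13A and RPL10A rose, by 0.31 ± 0.03, 0.28 ± 0.04 and 0.28 ± 0.03 log2. RPL3 stood at 923, 911 and 916 CPM with the combination, above every vehicle library and below every SR4 library. In PANC1, 8 members rose with all 3 treatments, and RPL7A, RPS10 and RPS26 fell with all 3. RPL36A and RPS27A, which encodes ubiquitin fused to a 40S protein, passed the test with none. No share of all genes is given here for these joint counts.

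**Figure D3:**
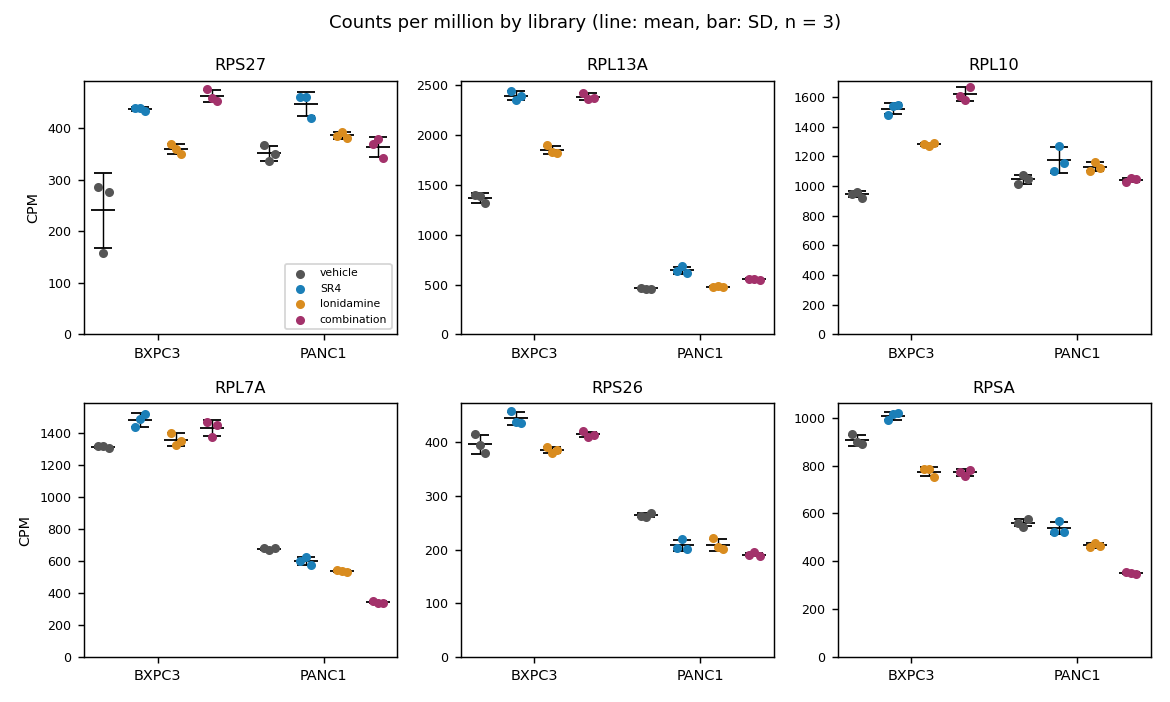
Level in CPM of RPS27, RPL13A, RPL10, RPL7A, RPS26 and RPSA in every library of both lines; colours are treatments, the line is the mean and the bar the SD (n = 3). RPL7A in PANC1 steps down from vehicle to 336 to 347 CPM with the combination, and the low second vehicle library of RPS27 in BXPC3, at 157 CPM, stands apart.

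The difference in response between the lines was tested directly in 1 model over all 24 libraries and 13930 genes. For the combination, the log2 change was lower in PANC1 than in BXPC3 for 71 members and higher for 0. Of all genes, 30.2% were lower and 31.7% higher (61.9% in either direction), and the median difference of the members was -0.44 log2. A lower log2 change can be a smaller rise or a larger fall. The RPL7A difference was -1.2 ± 0.05 (edgeR adjusted p = 8.01e-22), that of RPL10 was -0.87 ± 0.06 and that of RPS27 was -0.97 ± 0.14, or -0.66 without the second BXPC3 vehicle library. Among the other members, RPL23A differed by -0.84 ± 0.06, RPS25 by -0.81 ± 0.06 and RPL13A by -0.62 ± 0.05 log2. In each line's own test, 23 members rose in BXPC3 and fell in PANC1 with the combination, and 0 did the reverse. No share of all genes is given here for this joint count. RPS25 was one of the 23 members. In BXPC3 it went from 380, 390 and 370 CPM to 479, 495 and 498 CPM, and in PANC1 from 448, 452 and 438 CPM to 339, 353 and 351 CPM. Only RPL13 had a higher log2 change with the combination in PANC1 than in BXPC3, and its difference of 0.18 ± 0.13 did not pass the test.

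For lonidamine, the log2 change was lower in PANC1 for 38 members and higher for 0. Of all genes, 18.2% were lower and 23.5% higher (41.8% in either direction), and the median difference of the members was -0.16 log2. RPS25 (-0.55 ± 0.06), RPS27 (-0.50 ± 0.14, and -0.29 without the second BXPC3 vehicle library) and RPL26 (-0.51 ± 0.17) differed most. RPL26, a low-count member at 9.14 to 19.5 CPM in the libraries of both lines, fell to -0.40 and lost its call when the second PANC1 vehicle library was left out. For SR4, the log2 change was lower in PANC1 for 26 members and higher for 4. Of all genes, 24.9% were lower and 26.2% higher (51.2% in either direction), and the median difference of the members was -0.07 log2. Without the third PANC1 SR4 library the member counts were 14 and 7. The count of 4 was also 7 without the first PANC1 vehicle or the second BXPC3 SR4 library. RPL13 (0.53 ± 0.12), RPS2 (0.32 ± 0.05), RPL10A (0.22 ± 0.05) and RPL3 (0.21 ± 0.05) had a higher log2 change in PANC1. RPL10 (-0.46 ± 0.06), RPS26 (-0.45 ± 0.06) and RPS27 (-0.46 ± 0.14, and -0.21 without the second BXPC3 vehicle library) had a lower one. Both RPS26 and RPL7A rose with SR4 in BXPC3 and fell with it in PANC1.

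**Figure D4:**
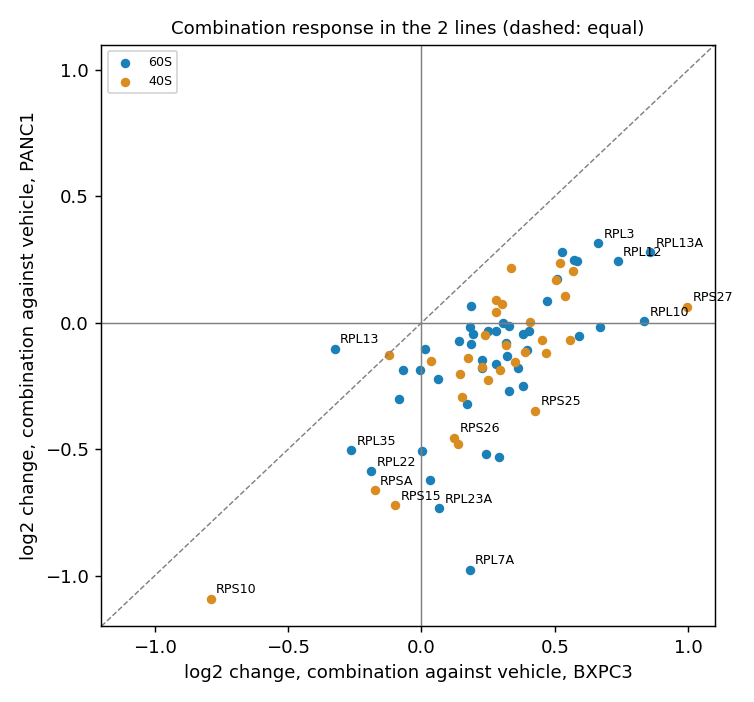
Log2 change with the combination in PANC1 (vertical axis) against that in BXPC3 (horizontal axis) for the 77 genes; blue points are 60S and orange points 40S genes, and the dashed line marks equal change. Of the 77 points 76 lie below the dashed line, RPL7A farthest.

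The members nevertheless kept much of their order between the lines, which share no libraries. Across the 77 genes the log2 changes in BXPC3 and PANC1 had a Pearson correlation of 0.59 with SR4, 0.54 with lonidamine and 0.70 with the combination (Spearman 0.58, 0.57 and 0.71), given as a description because genes of 1 library are not independent. RPL35, RPL22, RPSA, RPS15, RPS2 and RPS10 fell with the combination in both lines, and 12 members rose in both. The shares of all genes that did so are not given here.

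Against SR4 alone, the combination lowered the members in PANC1. There 74 of the 77 members were lower with the combination than with SR4 and 0 were higher, against 33.4% and 33.2% of all genes (66.5% in either direction), with a median of -0.38 log2. In BXPC3, 14 were higher and 22 lower, against 30.3% and 30.5% of all genes (60.8% in either direction), with a median of -0.06. On library totals without TMM the BXPC3 counts were 5 and 51. Against lonidamine alone, 46 members were higher with the combination and 2 lower in BXPC3, against 30.1% and 30.7% of all genes (60.8% in either direction). The 2 were RPL6 and the low-count RPL36A, and 1 was left when the first or second combination library was left out. In PANC1, 10 were higher and 28 lower, against 37.1% and 37.5% (74.6% in either direction), and on library totals without TMM 6 and 45. These comparisons share libraries with those against vehicle and take the doses in the combination to be those of the single treatments.

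The log2 changes with the combination mostly lay below the sum of the log2 changes with each compound, which can be a smaller rise or a larger fall. Comparison with that sum also takes the doses in the combination to be those of the single treatments. In BXPC3 the departure from that sum was negative in 52 members and positive in 1, against 25.5% and 23.7% of all genes (49.2% in either direction), with a median of -0.21 log2. The positive one was RPS9. In PANC1 it was negative in 68 and positive in 1, against 30% and 30.8% of all genes (60.9% in either direction), with a median of -0.35. RPL3 departed by -0.51 ± 0.05 log2 in PANC1, whereas in BXPC3 its departure of -0.03 ± 0.04 did not pass the test. RPL12 departed by -0.61 ± 0.05 in PANC1 and by -0.09 ± 0.04 in BXPC3, where it did not pass either. RPL7A departed by -0.46 ± 0.05 in PANC1, where it fell with each compound and fell by more than the sum with the combination. RPS26 departed by 0.24 ± 0.06 in PANC1, the single positive call there, and its fall with the combination was smaller than the sum of its single falls.

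In vehicle libraries the lines differed in the level of most members. Of the 77, 15 were higher and 51 lower in PANC1, against 41.3% and 43% of all genes (84.3% in either direction), with a median difference of -0.36 log2. Every PANC1 vehicle library lay above every BXPC3 vehicle library in 21 members and below in 49, with no share of all genes given here. Per kilobase of the gene length in the deposited tables, RPL8 (784 CPM per kb), RPL7A (588), RPL13A (578) and RPS12 (529) were among the highest in BXPC3. In PANC1 RPS16 (2101 CPM per kb), RPS12 (550), RPL8 (446), RPLP0 (442) and RPS2 (394) were highest. Those lengths are longer than the mature mRNAs, so the order is approximate.

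RPS16, which reaches the decoding site of the 40S subunit with its tail, stood apart. It lies on chromosome 19, 39433207 to 39435948 (hg38, as in the deposited tables). It had 657, 638 and 599 CPM in BXPC3 vehicle libraries and 5353, 5316 and 5248 CPM in those of PANC1, a difference of 2.99 ± 0.04 log2 or 7.92-fold (edgeR adjusted p = 8.31e-41). Without RPS16, the members took 4.03% ± 0.0935 of counts in BXPC3 and 3.30% ± 0.0220 in PANC1 vehicle libraries (SD, n = 3). RPS16 rose with SR4 in both lines, by 0.49 ± 0.03 and 0.43 ± 0.03 log2, against member medians of 0.33 and 0.29.

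Most genes around RPS16 were higher in PANC1 as well. Of 19 other genes tested within 500 kb, 18 were higher in PANC1 and 1 was lower, against 41.3% and 43% of all genes, and their median difference was 3.37 log2. This count, with no further filter on the level, was made after the values were seen. The lower one was GMFG, 105 kb before RPS16, with 1.31 CPM in BXPC3 and 0.481 CPM in PANC1, a difference of -1.51 ± 0.50 log2 (edgeR adjusted p = 0.00591). Among the higher ones were SUPT5H, a transcription elongation factor, with 253 CPM in BXPC3 and 2040 CPM in PANC1, PAF1, another elongation factor, with 104 and 1582 CPM, and FBL, the rRNA methyltransferase fibrillarin, with 241 and 2651 CPM. Genes beyond that distance were looked at after these values were seen. The run reached AKT2, 797 kb away, with a difference of 3.58 ± 0.04 log2, and ended before C19orf47, 886 kb away, with -0.33 ± 0.10. From 1000 to 2000 kb on that side, 18 genes with a mean of at least 2 log2 CPM had a median of -1.05 log2. Of these, 2 were higher in PANC1. From 2000 to 1000 kb before RPS16, 11 of 15 genes past the same filter were higher, with a median of 0.91 log2. Nearer on the side before RPS16, FBXO27, 442 kb away, differed by 4.39 ± 0.05 log2 and RINL, 565 kb away, by -3.43 ± 0.24. RINL was the only gene tested from 1000 to 500 kb before RPS16 that was lower in PANC1. The others there were higher, such as EIF3K by 2.11 ± 0.04 and HNRNPL by 0.36 ± 0.04 log2. DNA copy number was not measured here.

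Position went with the line difference for other members too. For 63 members with at least 5 neighbours of a mean of at least 2 log2 CPM, the member's own difference between the lines and the median difference of its neighbours within 500 kb had a Pearson correlation of 0.84 (Spearman 0.75), and 0.77 (Spearman 0.74) without RPS16. This is a description over genes of the same libraries, and members that lie close together share neighbours. RPS7, on chromosome 2, was 1.2 ± 0.04 log2 higher in PANC1, with a neighbour median of 1.55. RPLP2, on chromosome 11, was 0.86 ± 0.05 higher, with a neighbour median of 1.19. Of the 12 members on chromosome 19, RPS16 was the 1 that was higher in PANC1. RPL18, RPL13A and RPS19, farther along the same chromosome, were lower by 1.66, 1.65 and 1.45 log2, with neighbour medians of -0.99, -1.23 and -1.32. RPL13A had 463, 459 and 459 CPM in PANC1 vehicle libraries against 1313 to 1396 CPM in BXPC3. RPL7A, on chromosome 9, was lower by 1.04 with a neighbour median of -0.93. The signs agreed for 43 of the 63 members.

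**Figure D5:**
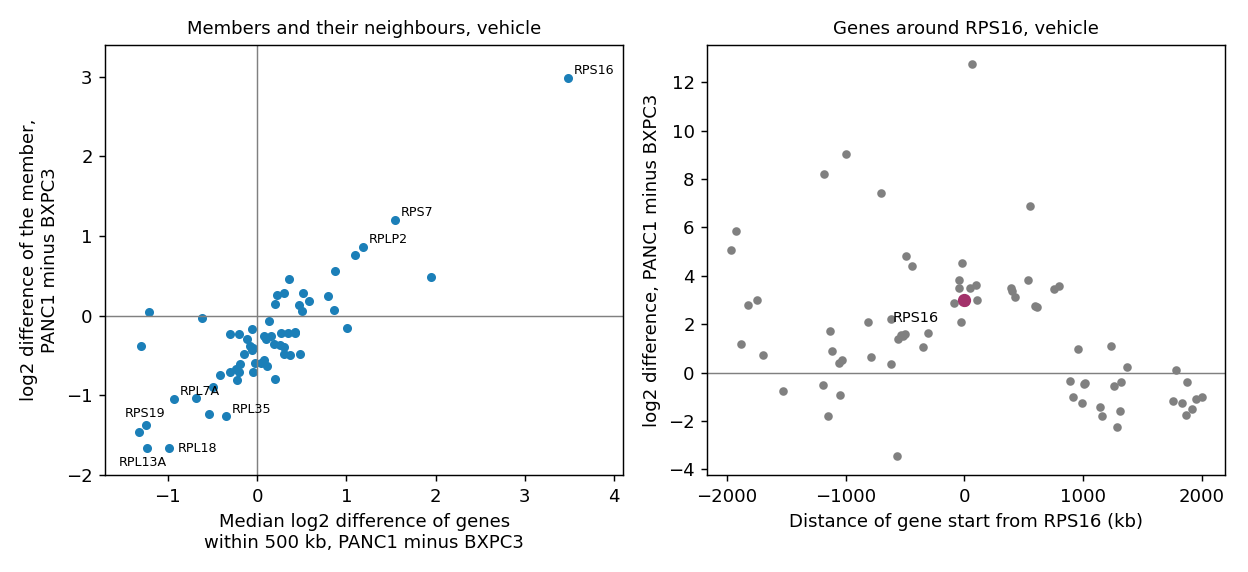
Left, log2 difference between PANC1 and BXPC3 vehicle libraries of 63 ribosomal protein genes (vertical axis) against the median difference of other genes within 500 kb (horizontal axis). Right, the same difference for genes within 2000 kb of RPS16 by distance in kb, with RPS16 as the large point; only genes with a mean of at least 2 log2 CPM over both lines are plotted, a filter that genes high in PANC1 alone can pass. The plotted genes from 100 kb before to 850 kb after RPS16, a range chosen after its values were seen, lie at 2.08 log2 or above, and CNTD2, 789 kb away with a difference of 1.54 log2 (edgeR adjusted p = 0.0522), is below the filter and not plotted.

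A few members had very low counts in every library of both lines. RPS10, RPL17 and RPL36A had 1.63, 2.28 and 2.90 CPM in BXPC3 vehicle libraries and 2.12, 1.76 and 3.76 CPM in those of PANC1 (means, n = 3). RPL26, RPL13, RPS15A and RPL23 followed, with 13.5, 25.8, 51.8 and 57.5 CPM in BXPC3. In GENCODE v29, a release that may not be the one used for the tables, RPL17 shares 97.0% of its 50-base windows with the readthrough gene RPL17-C18orf32, and RPS10 shares 72.1% with RPS10-NUDT3. Both readthrough genes, and RPL36A-HNRNPH2, had 0 counts in all 24 libraries. Over the 77 members the share of windows found in other genes and the vehicle CPM had a Spearman correlation of -0.07 in BXPC3 and -0.03 in PANC1. The Pearson correlation of that share with log2 CPM was -0.25 in BXPC3 and -0.23 in PANC1. No source used here says how reads that match several genes were counted, so the levels of RPS10, RPL17 and RPL36A, and of members with many processed copies, are uncertain.

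The closest relatives of the members mostly did not rise. Of 8 paralogs outside the rule, 6 were tested, and with the combination 0 rose and 3 fell in BXPC3 while 1 rose and 5 fell in PANC1, against 39.7% and 39.5% of all genes in BXPC3 and 40.1% and 40.9% in PANC1. RPL22L1, the paralog of RPL22, had 20.2, 16 and 19.6 CPM in PANC1 vehicle libraries, 62.6, 60.9 and 66.6 CPM with SR4, 25.8, 26.2 and 25.3 CPM with lonidamine and 48.0, 47.2 and 42.1 CPM with the combination. No treated library overlapped vehicle, and the log2 change with SR4 was 1.80 ± 0.08 (edgeR adjusted p = 1.70e-17). In BXPC3 it changed by -0.11 ± 0.08 with SR4, which did not pass the test, and the difference between the lines was 1.90 ± 0.12. RPL22 itself changed by -0.08 ± 0.04 with SR4 and -0.59 ± 0.04 with the combination in PANC1. RPL39L, the paralog of RPL39 known from the testis, fell in BXPC3 with lonidamine by 1.85 ± 0.16 log2, from 9.24, 10.2 and 10.2 CPM to 2.64, 2.38 and 2.99 CPM, while RPL39 rose by 0.12 ± 0.04, a call lost without the second vehicle library. RPL36AL fell in PANC1 with all 3 treatments, by 0.60 ± 0.05, 0.45 ± 0.05 and 0.85 ± 0.05 log2. RPL3L and RPL10L had too few counts to be tested.

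RACK1 and FAU, ribosomal proteins whose symbols fall outside the rule, differed. RACK1, the kinase scaffold on the 40S subunit, rose in BXPC3 by 0.48 ± 0.03, 0.33 ± 0.03 and 0.56 ± 0.03 log2 with SR4, lonidamine and the combination. FAU, a fusion of a ubiquitin-like protein with a 40S protein, passed the test in none of the 6 comparisons with vehicle.

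Other mRNAs known to carry TOP tracts mostly rose in BXPC3. Of 15 such genes outside the ribosome, 13 rose and 2 fell with each treatment in BXPC3, with medians of 0.33, 0.25 and 0.46 log2. Of all genes there, 33.4%, 34.8% and 39.7% rose and 33.9%, 32.7% and 39.5% fell. HNRNPA1, a splicing factor, and NPM1, a nucleolar chaperone, were the ones that fell. In PANC1 12 rose and 2 fell with SR4, 5 rose and 6 fell with lonidamine, and 7 rose and 5 fell with the combination. The shares of all genes were 35%, 35% and 40.1% that rose and 36.7%, 34.2% and 40.9% that fell, so the counts with lonidamine and the combination in PANC1 lay near them. EEF2, the translocation factor, rose by 1.19 ± 0.03 log2 with the combination in BXPC3 and by 0.25 ± 0.03 in PANC1. TPT1, a growth-related TOP mRNA, rose in all 6 comparisons, by 0.54 ± 0.04 to 1.30 ± 0.03 log2. HNRNPA1 fell in all 6, by 0.27 ± 0.04 to 0.96 ± 0.04.

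Among 16 regulators of TOP mRNAs and mTORC1, SESN2 and DDIT4, both inhibitors of the kinase, rose most with the combination in each line. SESN2, a leucine sensor that inhibits mTORC1, rose by 2.11 ± 0.07 to 2.48 ± 0.07 log2 in BXPC3 and by 3.37 ± 0.06 to 3.90 ± 0.06 in PANC1. DDIT4, which acts through TSC2, rose by 1.30 ± 0.04 to 2.49 ± 0.04 and by 2.18 ± 0.06 to 2.74 ± 0.05. EIF4EBP1 rose by 1.29 ± 0.05 to 1.69 ± 0.05 and by 0.86 ± 0.08 to 1.25 ± 0.07. EIF4EBP2, its relative, fell in all 6 comparisons. LARP1, singled out for its role, rose by 0.10 ± 0.04 with the combination in BXPC3 and fell by 0.42 ± 0.03 in PANC1. With the combination, 10 of the 16 rose and 5 fell in BXPC3, and 12 rose and 3 fell in PANC1, against 39.7% and 39.5% of all genes in BXPC3 and 40.1% and 40.9% in PANC1. Translation itself was not measured.

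Genes that build ribosomes did not follow the genes of the ribosome. With the combination in BXPC3, 18 of 20 genes of small-subunit assembly fell and 1 (NOB1, an endonuclease) rose, with a median of -0.51 log2, and 14 of 21 genes of large-subunit assembly fell and 3 rose, with a median of -0.54. In PANC1 the directions were the other way round: 17 of 20 rose and 2 fell, with a median of 0.69, and 13 of 21 rose and 6 fell, with a median of 0.53. NOL6, a small-subunit processome protein, changed by -1.44 ± 0.05 log2 in BXPC3 and by 1.19 ± 0.04 in PANC1. RRP12, of late subunit export, changed by -0.15 ± 0.07 and 1.76 ± 0.04, and MRTO4, a placeholder for RPLP0 in early 60S particles, by -1.36 ± 0.05 and -0.40 ± 0.05. Each direction is set against 39.7% rising and 39.5% falling of all genes in BXPC3, and 40.1% and 40.9% in PANC1.

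The other lists were as follows, for the combination, with which 39.7% of all genes rose and 39.5% fell in BXPC3 and 40.1% rose and 40.9% fell in PANC1. Of 16 genes of RNA polymerases I and III, 3 rose and 8 fell in BXPC3, and 8 rose and 6 fell in PANC1. UBTF, the activator of rRNA genes, fell by 0.90 ± 0.05 and 1.27 ± 0.04 log2. Of 12 chaperones and importers of ribosomal proteins, 2 rose and 8 fell, and 5 rose and 5 fell. IPO9, an importer, fell by 0.88 ± 0.05 and 0.56 ± 0.04. Of 10 transcription factors known from ribosomal protein or MYC target promoters, 7 rose and 2 fell in BXPC3 and 7 rose and 3 fell in PANC1. MYC itself changed by -0.01 ± 0.04, which did not pass the test, in BXPC3 and rose by 1.12 ± 0.04 in PANC1. Of 14 genes of ribosome quality control, 5 rose and 5 fell in BXPC3, and 10 rose and 2 fell in PANC1. ZNF598, which marks collided ribosomes, rose by 0.96 ± 0.05 and 1.84 ± 0.05. Of 5 genes of ribosome hibernation and elongation control, 1 rose and 4 fell, and 1 rose and 2 fell.

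The mitochondrial ribosomal protein genes, which build the other ribosome of the cell, mostly fell in BXPC3. Of 77 tested, 3 rose and 50 fell with SR4 in BXPC3 (median -0.31 log2), 4 rose and 45 fell with lonidamine (-0.25) and 4 rose and 63 fell with the combination (-0.54). Of all genes in BXPC3, 33.4%, 34.8% and 39.7% rose and 33.9%, 32.7% and 39.5% fell. Their share of counts in BXPC3 was 0.338% ± 0.00418 with vehicle and 0.228% ± 0.00266 with the combination (SD, n = 3), the reverse of the cytosolic share. In PANC1 20 rose and 26 fell with SR4, 7 rose and 42 fell with lonidamine, and 21 rose and 39 fell with the combination, against 35%, 35% and 40.1% of all genes that rose and 36.7%, 34.2% and 40.9% that fell. The count with SR4 in PANC1 lay near the share of all genes. There the share was 0.433% ± 0.00351 with vehicle and 0.431% ± 0.00542 with the combination.

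Other shared properties gave small differences in median. The 28 members that host small nucleolar RNAs in their introns and the 49 that do not had medians of 0.36 and 0.31 log2 with SR4 in BXPC3, and of -0.07 and -0.14 with the combination in PANC1. Across the 77 members, the mean level and the log2 change with the combination had a Spearman correlation of 0.32 in both lines, given as a description. Within the promoter windows of 300 bases, a CCGGAAGT motif (either strand) was present for 9 of the 62 matched members (14.5%) and for 4.95% of all genes.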

How the data were processed

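The authors deposited 1 table of whole-number gene counts per line, with 12 libraries each. STAR 2.7.8a, Partek and DESeq2 are named without roles, with the builds GRCh38 and hg38, per the submitters' processing notes. No source used here gives the counting tool, the annotation or whether strand was used. Counts that match several genes can fall to copies or to none, which touches ribosomal protein genes. Every value column was used (0 left out), and a BXPC3 SR4 column whose number differs from its title was kept as an unnumbered replicate.

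Genes were kept by filterByExpr (minimum count 10) and scaled by TMM in edgeR 4.0.16 (R 4.3.3). Each line was fitted with 4 groups, and both lines with 8 groups, by the quasi-likelihood test, at a Benjamini-Hochberg adjusted p of 0.05. All 77 members passed the filter in each line. The SE of a log2 change is its size over the square root of F. CPM values are per 1000000 gene counts, without TMM. The biological coefficient of variation was 3.95% in BXPC3 and 3.79% in PANC1. The steps were tested on simulated data.

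The members, lists and comparisons were chosen with earlier results of these data known. Genes named are the 3 largest rises and falls per comparison among members past the test with a mean of at least 2 log2 CPM and, against vehicle, with no overlap of libraries, the 5 highest and 5 lowest per kilobase, a panel of 17 by role, the fusion genes and paralogs, and up to 3 of each other list by adjusted p, with a few others that are members of a count or chosen after their values were seen (LARP1, NOB1, NPM1, EIF4EBP2, RPL6, RPS9 and the genes around RPS16). Alternatives were DESeq2 1.42.0 and its size factors, library totals, scaling without the members, no filter, only the groups compared, the replicate number as a block, and leaving out each library. Sequences are from RefSeq (GRCh38.p14). Some items are not reported here.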

Additional observations from a re-analysis of the deposited data

Results flagged for a closer look

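The responses of the members were compared between the lines by a direct test in edgeR, the difference of responses in 1 model over all libraries. With SR4, the log2 change was higher in PANC1 than in BXPC3 for 4 members and lower for 26. Of all genes, 26.2% were higher and 24.9% lower (51.2% in either direction). Without the third PANC1 SR4 library the member counts were 7 and 14. The named members were RPL13 (0.53 log2), RPS2 (0.32), RPL10A (0.22), RPL10 (-0.46), RPS27 (-0.46) and RPS26 (-0.45). With lonidamine, the log2 change was higher for 0 members and lower for 38, led by RPS25 (-0.55), RPL26 (-0.51) and RPS27 (-0.50). The shares of all genes were 23.5% higher and 18.2% lower (41.8% in either direction). With the combination, the log2 change was higher for 0 members and lower for 71, led by RPL7A (-1.2), RPS27 (-0.97) and RPL10 (-0.87). The shares of all genes were 31.7% higher and 30.2% lower (61.9% in either direction). The values of RPS27 rest in part on the second BXPC3 vehicle library, without which they were -0.21, -0.29 and -0.66. No group has 4 or more libraries, so single libraries were not tested as outliers.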

How the results depend on the processing

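Member counts past the test kept within 1.5 times under DESeq2, its size factors, no filter, only the groups compared and scaling without the members. On library totals without TMM, members higher and lower with the combination than with SR4 in BXPC3 were 5 and 51, members higher with lonidamine in PANC1 were 22, members higher and lower with the combination than with lonidamine in PANC1 were 6 and 45, and members with a higher lonidamine response in PANC1 were 2. RPL13A in the combination against SR4 in BXPC3 turned from 0.08 to -0.00546 log2 (edgeR adjusted p = 0.870). Under that scaling the median of all genes in the lonidamine response difference was 0.11 log2, against 0.05 with TMM. The cause of these changes was not tested.

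Same-numbered libraries did not deviate together (median correlation -0.016 over 15 pairs in BXPC3 and over 18 in PANC1, 0 pairs over 0.1). No shared effect of the number was seen, but whether same-numbered libraries were handled together cannot be told from this. With the replicate number as a block, 67 members rose with SR4 in BXPC3 (68 without). The log2 change with SR4 was lower in PANC1 than in BXPC3 for 19 members (26 without). With the combination, 15 were lower than with SR4 in BXPC3 (22 without). The block moved no member count by over 1.5 times. Of 947 named values 924 kept their call, 17 lost it and 6 gained it.

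Leaving out each library in turn, members higher and members lower were 66 to 71 and 0 for SR4 against vehicle in BXPC3, and 49 to 58 and 4 to 6 for lonidamine against vehicle in BXPC3. They were 58 to 62 and 5 to 7 for combination against vehicle in BXPC3, and 10 to 14 and 17 to 25 for combination against SR4 in BXPC3. They were 37 to 48 and 1 to 3 for combination against lonidamine in BXPC3, and 1 and 47 to 56 for the departure from the sum in BXPC3. They were 59 to 61 and 2 to 4 for SR4 against vehicle in PANC1, and 7 to 12 and 17 to 24 for lonidamine against vehicle in PANC1. They were 11 to 13 and 34 to 36 for combination against vehicle in PANC1, and 0 and 73 to 74 for combination against SR4 in PANC1. They were 8 to 9 and 22 to 30 for combination against lonidamine in PANC1, and 1 and 64 to 70 for the departure from the sum in PANC1. They were 15 and 50 to 52 for vehicle, PANC1 against BXPC3, and 4 to 7 and 14 to 29 for SR4 response, PANC1 minus BXPC3. They were 0 and 35 to 52 for lonidamine response, PANC1 minus BXPC3, and 0 to 1 and 66 to 71 for combination response, PANC1 minus BXPC3. RPS10, RPL17 and RPL36A, at 1.63 to 3.76 CPM with vehicle, limit what depth can show for them.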
